A study of Homo sapiens with 52 samples.

Results

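The genes described here encode 10 histone demethylases with a Jumonji (JmjC) catalytic domain, KDM2B, KDM3A, KDM3B, KDM4A, KDM4B, KDM4C, KDM5A, KDM5B, KDM6A and KDM6B. They were chosen by name, as a family that 2 of the chemical probes in the screen were made to inhibit, and they are 10 of the 27043 genes listed in each table. All 10 passed the filter on low values (at least 1 TPM, a transcript level scaled to gene length and to a common library total, in 2 or more of the 52 samples), as did 16359 genes in all.

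JmjC demethylases are iron-dependent oxygenases that remove methyl groups from histone lysines with oxygen and 2-oxoglutarate as co-substrates. Family members differ in the lysine they act on. KDM3 enzymes act on H3K9, KDM4 enzymes on H3K9 and H3K36, KDM5 enzymes on H3K4 at promoters, KDM6 enzymes on H3K27, and KDM2B on H3K36 while also recruiting a Polycomb complex to CpG islands. The same chemistry is shared by the prolyl hydroxylases that sense oxygen and by the TET enzymes that oxidise methylcytosine.

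RNA-seq was performed on cultured fusion-positive rhabdomyosarcoma (FP-RMS) cells, from a childhood muscle-lineage tumour with the PAX3-FOXO1 fusion, after exposure to small molecules dissolved in DMSO. The screen comprised 20 compounds, each with 1 high-dose and 1 low-dose sample, and 4 DMSO samples, 2 labelled high (0.2% DMSO) and 2 labelled low (0.1%), all at 6 h. Cpd50 (labelled as acting on Jumonji enzymes in general) and GSKJ4 (labelled JMJD3/UTX, the other names of KDM6B and KDM6A) were each given at 5 and 0.5 µM, as was the HDAC inhibitor LAQ824. The other 17 compounds were given at 10 and 1 µM. Of the 20 compounds, 7 inhibited histone deacetylases (HDACs) or bromodomains and are called the acetylation axis, 11 acted on methyltransferases, demethylases or a methyl-lysine reader and are called the methylation axis, and 2 fell in neither class (PFI-3, labelled SMARCA4, and Trametinib, labelled MEK1/2). A second experiment held N1302 (labelled HDAC, 1 µM, 6 h) with a DMSO sample of its own, and another followed Entinostat (labelled HDAC1/2/3, 1 µM) and DMSO over 1, 6 and 24 h with 1 sample each. Every group carried the fusion, and no untreated sample without DMSO was analysed here.

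Screen samples are titled RH41 whereas their cell-line label reads RH4, so screen samples were not tested against the others. The N1302 and Entinostat samples and their DMSO samples are titled RH4. A difference in cell line between the screen and these samples therefore cannot be told apart from a difference in compound. In the screen's DMSO samples the muscle genes MYOD1 (640 to 648 TPM) and MYOG (572 to 587 TPM) were high. Among the listed markers of other cell types, only the leukocyte gene PTPRC and the keratinocyte gene KRT5 were at 0 in all 4. CD68 (1.80 to 3.02 TPM) and DCN (2.02 to 2.36 TPM) were the highest of these markers. VWF lay at 0.23 to 0.52 TPM and LUM at 0.08 to 0.22 TPM. PECAM1, EPCAM, CDH1 and GFAP reached at most 0.24 TPM. Depth recovered from the TPM steps lay between 5679778 and 41047798 reads and moved with the sequencing flow cell named in the deposited data. Cpd50, GSKJ4 and replicate 1 of each DMSO concentration shared a flow cell, LAQ824, MC1568 and replicate 2 of each DMSO concentration shared another, and the remaining 16 compounds were sequenced on 2 flow cells without a DMSO sample. Compounds were compared with DMSO by limma on log2(TPM + 1), the 2 doses of a compound serving as its 2 samples, and a gene was called at a Benjamini-Hochberg adjusted p below 0.05 over the 16359 genes. The 2 DMSO samples of a concentration differed by no more than sampling noise beyond flow cell and were counted as 1 sample. Replicates are not stated to come from separate cultures. In the fit of compounds and DMSO, p-values measured the spread between the 2 doses of a compound, pooled over compounds, and between the 2 DMSO concentrations. That spread held no difference between replicates. It mixed any effect of dose with variation between samples, which may be technical. In bulk samples fewer cells with a transcript and less transcript per cell cannot be told apart.

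The levels in DMSO set the base line for every change below. KDM3B was the highest of the 10 at 85.6, 82.2, 88.4 and 85.7 TPM in the 4 screen DMSO samples, and KDM4A followed at 73.3, 75.4, 72.3 and 72.2 TPM. KDM2B (42.6, 44.6, 46.5 and 47.0 TPM) and KDM3A (45.4, 45.7, 41.2 and 43.9 TPM) came next and overlapped each other. KDM5B lay between 29.6 and 31.1 TPM. KDM4B (22.2 to 22.9 TPM) lay just above KDM6A (21.4 to 21.8 TPM) and KDM5A (20.5 to 21.7 TPM), which overlapped each other. KDM6B spanned 16.2 to 19.96 TPM, the widest span relative to its level, and KDM4C was the lowest at 10.1 to 11.5 TPM. TPM is scaled for gene length, so these levels can be set side by side, and the order of the 10 genes changed only between the overlapping neighbours. The H3K9 demethylase genes therefore held both ends of the range, with KDM3B and KDM4A at the top and KDM4C at the bottom.

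The 2 solvent concentrations were compared first. Between 0.2% and 0.1% DMSO, 0 of the 10 genes and 0% of all genes were called by limma, with 1548 genes (1 of the 10, KDM2B) at an unadjusted p below 0.05. The variance of this difference was nevertheless 3.55 times counting noise over 10377 genes, so the 2 concentrations cannot be taken as equal. A test of 2 samples against 2 leaves small differences undecided. The largest difference among the 10 was in KDM4C, 11.3 and 11.5 TPM at 0.2% against 10.1 and 10.5 TPM at 0.1%, or 0.13 on the log2(TPM + 1) scale with a 95% interval of -0.03 to 0.29.

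Cpd50 is the probe labelled as acting on the family as a class. Whether the enzymes were inhibited was not measured in these samples, and the cause of the changes was not tested. After 6 h, 5 of the 10 genes had risen and none had fallen, whereas 5.7% of all genes were called and 3.43% were called higher. The 5 were KDM6B, KDM4C, KDM3A, KDM4B and KDM2B, which between them act on H3K27, H3K9 and H3K36. The median change of the 10 was 0.58 on the log2(TPM + 1) scale, beside -0.05 over all genes tested.

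KDM6B, an H3K27 demethylase known for its induction by stress and inflammatory signals, changed most. It reached 58.3 TPM at 5 µM and 52.3 TPM at 0.5 µM, against 19.96, 16.2, 18.4 and 17.8 TPM in DMSO. Both treated samples lay far above all 4 controls, and the change was 1.56 ± 0.32 (SE) on the log2(TPM + 1) scale (limma adjusted p = 0.00273). Its paralog KDM6A, which sits in the MLL3/MLL4 methyltransferase complexes, was at 20.8 and 21.5 TPM against 21.4 to 21.8 TPM, a difference of -0.04 with a 95% interval of -0.65 to 0.58.

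KDM4C, an H3K9 and H3K36 demethylase, rose from the lowest level of the family. It measured 33.0 TPM at 5 µM and 29.0 TPM at 0.5 µM against 11.3, 11.5, 10.1 and 10.5 TPM in DMSO, with no overlap, and changed by 1.43 ± 0.26 (SE, adjusted p = 0.000561). Its relative KDM4B reached 60.6 and 56.6 TPM against 22.2, 22.6, 22.5 and 22.9 TPM, a change of 1.34 ± 0.25 (adjusted p = 0.000764). KDM4A moved the other way without passing the test: 60.8 and 60.02 TPM lay below the 72.2 to 75.4 TPM of DMSO, a difference of -0.27 with a 95% interval of -0.59 to 0.04 (adjusted p = 0.398). In a fit of only the Cpd50 and DMSO samples, where the spread was that of these 4 values alone, KDM4A was called as well (adjusted p = 0.0173), beside 30% of all genes. One subfamily thus held 2 genes that rose and 1 whose call depended on which samples set the spread.

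KDM3A, an H3K9 demethylase known as a hypoxia-inducible gene, was at 122 TPM at 5 µM and 117 TPM at 0.5 µM against 45.4, 45.7, 41.2 and 43.9 TPM. These were the 2 highest values of KDM3A among all 52 samples, and the change was 1.42 ± 0.29 (SE, adjusted p = 0.00242). KDM3B, with the same substrate, was at 82.0 and 87.6 TPM inside or at the edge of its DMSO range of 82.2 to 88.4 TPM (-0.01, 95% interval -0.45 to 0.43). KDM2B, the H3K36 demethylase with a CpG-binding zinc finger, measured 89.9 and 86.9 TPM against 42.6, 44.6, 46.5 and 47.0 TPM and changed by 0.95 ± 0.17 (SE, adjusted p = 0.00044).

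The H3K4 demethylase genes were not called. KDM5A was at 18.8 and 21.2 TPM against 20.5 to 21.7 TPM (-0.08, 95% interval -0.49 to 0.34). KDM5B was at 34.3 and 36.7 TPM, above its DMSO range of 29.6 to 31.1 TPM, with a difference of 0.22 and a 95% interval of -0.11 to 0.54 (adjusted p = 0.59). The interval of each of the 5 genes that were not called ended below the point estimates of the 5 that rose, which started at 0.95.

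**Figure D1:**
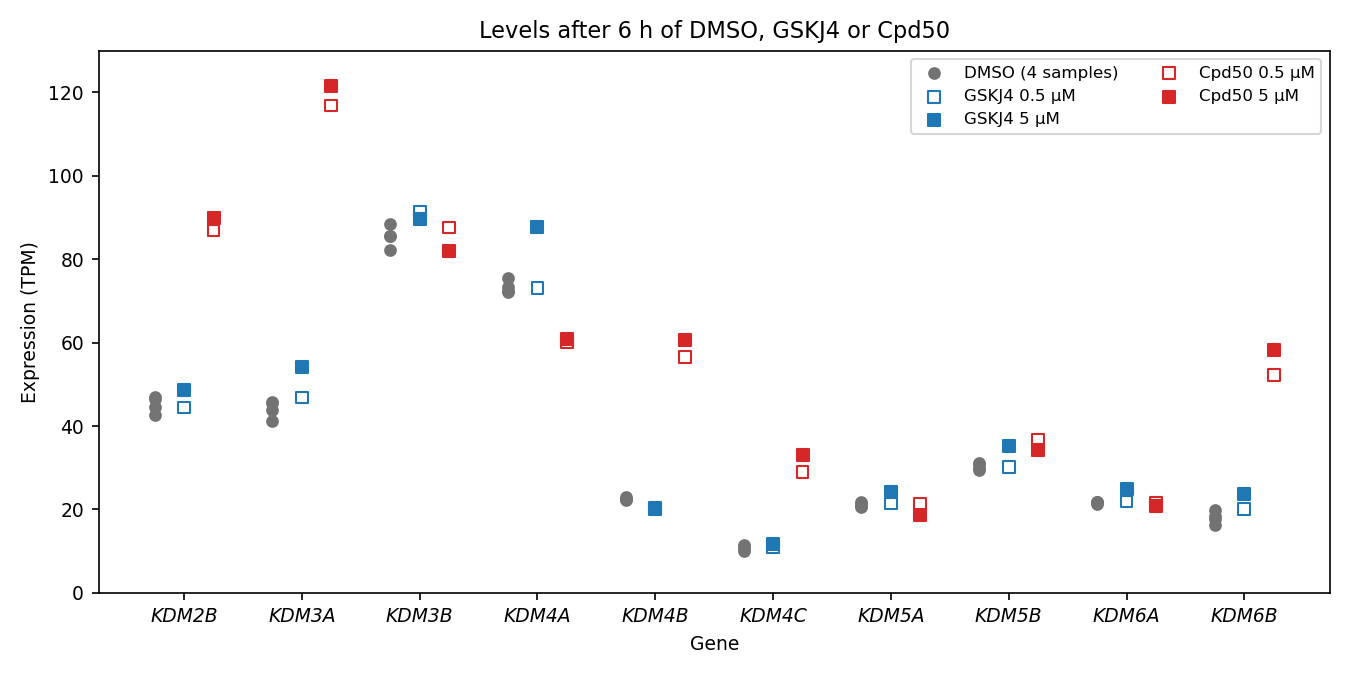
Expression of the 10 genes in TPM (y axis, from 0) in the 4 DMSO samples (grey points), GSKJ4 (blue squares) and Cpd50 (red squares) at 0.5 µM (open) and 5 µM (filled), each mark being 1 sample at 6 h. KDM2B, KDM3A, KDM4B, KDM4C and KDM6B stood above DMSO at both doses of Cpd50 and lay near DMSO in GSKJ4.

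The 10-fold step in dose moved these genes little. Between 0.5 and 5 µM the 5 genes that rose differed by 0.05 (KDM2B), 0.06 (KDM3A), 0.09 (KDM4B), 0.18 (KDM4C) and 0.15 (KDM6B) on the log2(TPM + 1) scale, higher at 5 µM in each, against changes from DMSO of at least 0.88 at either dose when the high dose was set against 0.2% and the low dose against 0.1% DMSO. The labels do not give the DMSO share of the treated samples, and the study's methods state a lower final share than either DMSO label, so this match follows only the words high and low in the titles. Against the DMSO samples of the same flow cell alone the changes were 1.48 for KDM6B, 1.45 for KDM4C, 1.44 for KDM3A, 1.35 for KDM4B and 0.97 for KDM2B, and all 5 were called. Without the 5 µM sample the adjusted p of KDM6B was 0.053, with a change of 1.49. Scaling the samples to the median ratio of 6316 well-expressed genes raised every Cpd50 change by about 0.13 and kept all 5 calls.

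GSKJ4, the probe aimed at the KDM6 pair, was measured at the same doses and time and on the same flow cell. None of the 10 genes was called, 0.0122% of all genes were (2 of 16359, both lower), and 392 genes, none of them among the 10, had an unadjusted p below 0.05. Its named targets showed KDM6A at 24.8 and 21.9 TPM (5 and 0.5 µM) against 21.4 to 21.8 TPM, a difference of 0.10 with a 95% interval of -0.52 to 0.72, and KDM6B at 23.7 and 20.2 TPM against 16.2 to 19.96 TPM, a difference of 0.27 with a 95% interval of -0.40 to 0.93. The differences of the other 8 genes ran from -0.15 (KDM4B) to 0.19 (KDM3A). At 5 µM alone, KDM4A stood at 87.8 TPM against 73.1 TPM at 0.5 µM and 72.2 to 75.4 TPM in DMSO, and KDM3A at 54.1 TPM against 46.9 TPM and 41.2 to 45.7 TPM. The 5 µM sample was the higher of the pair in 8 of the 10 genes, by at most 0.26 on the log2(TPM + 1) scale.

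**Figure D2:**
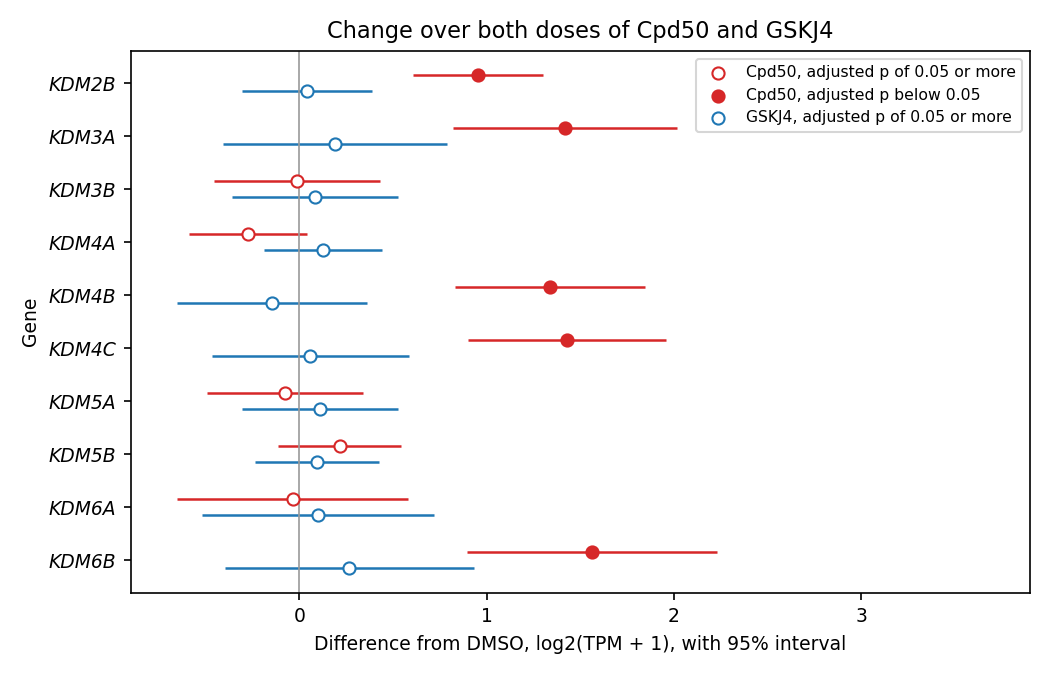
Difference from DMSO over both doses on the log2(TPM + 1) scale (x axis) with 95% intervals for the 10 genes, Cpd50 in red and GSKJ4 in blue, filled where the limma adjusted p was below 0.05. The intervals of 5 genes under Cpd50 lay above 0.6, and every GSKJ4 interval included 0.

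The 2 probes were then set against each other directly, as 1 pair at matched doses and time. The same 5 genes were higher with Cpd50 than with GSKJ4, whereas 3.68% of all genes differed and 2.73% were higher with Cpd50. The differences were 1.48 ± 0.25 (SE) for KDM4B (adjusted p = 0.000254), 1.37 ± 0.26 for KDM4C (adjusted p = 0.001), 1.296 ± 0.324 for KDM6B (adjusted p = 0.0185), 1.23 ± 0.29 for KDM3A (adjusted p = 0.0117) and 0.91 ± 0.17 for KDM2B (adjusted p = 0.000827). KDM4A was lower with Cpd50 by a difference of -0.40 with a 95% interval of -0.72 to -0.09, which did not pass the adjustment (adjusted p = 0.197). The other 4 differences were -0.19 for KDM5A (95% interval -0.61 to 0.23), -0.14 for KDM6A (-0.75 to 0.48), 0.12 for KDM5B (-0.21 to 0.45) and -0.09 for KDM3B (-0.54 to 0.35). Without the high dose of both probes 0 of the 5 calls were left and without the low dose 1 (KDM4B), with the differences between 0.87 and 1.54.

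The 5 genes that rose together are shown with the 250 bases upstream of their first listed RefSeq start (build GRCh38.p14, 5′ to 3′ on the gene's strand), because KDM3A is a known target of hypoxia-inducible factors and these bind the core letters ACGTG or GCGTG. Capitals mark every match to either core on either strand, and CACGTG, which reads the same on both strands, counts as 2 overlapping matches. The windows are chr12:121581024-121581273 (minus strand, KDM2B), chr2:86441121-86441370 (plus, KDM3A), chr19:4968863-4969112 (plus, KDM4B), chr9:6757723-6757972 (plus, KDM4C) and chr17:7833967-7834216 (plus, KDM6B).
KDM2B: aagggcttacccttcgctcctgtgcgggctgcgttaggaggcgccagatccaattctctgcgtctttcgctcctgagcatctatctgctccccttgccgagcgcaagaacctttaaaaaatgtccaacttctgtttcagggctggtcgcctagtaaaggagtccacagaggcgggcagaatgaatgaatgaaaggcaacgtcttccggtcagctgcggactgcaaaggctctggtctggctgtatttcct
KDM3A: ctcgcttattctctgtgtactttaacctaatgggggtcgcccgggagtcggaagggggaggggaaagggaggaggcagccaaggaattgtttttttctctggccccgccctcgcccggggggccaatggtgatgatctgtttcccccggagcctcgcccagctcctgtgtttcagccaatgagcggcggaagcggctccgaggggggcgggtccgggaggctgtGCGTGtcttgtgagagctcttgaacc
KDM4B: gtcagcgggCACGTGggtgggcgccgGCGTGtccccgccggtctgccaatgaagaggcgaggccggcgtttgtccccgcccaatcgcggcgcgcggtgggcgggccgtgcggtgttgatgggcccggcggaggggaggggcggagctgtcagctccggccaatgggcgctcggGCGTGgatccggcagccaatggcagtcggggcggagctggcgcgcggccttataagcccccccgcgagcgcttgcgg
KDM4C: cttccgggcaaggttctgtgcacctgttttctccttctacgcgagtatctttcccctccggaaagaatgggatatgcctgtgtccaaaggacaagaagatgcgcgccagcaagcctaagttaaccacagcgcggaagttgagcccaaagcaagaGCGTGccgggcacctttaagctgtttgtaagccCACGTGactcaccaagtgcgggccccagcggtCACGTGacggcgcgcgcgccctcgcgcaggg
KDM6B: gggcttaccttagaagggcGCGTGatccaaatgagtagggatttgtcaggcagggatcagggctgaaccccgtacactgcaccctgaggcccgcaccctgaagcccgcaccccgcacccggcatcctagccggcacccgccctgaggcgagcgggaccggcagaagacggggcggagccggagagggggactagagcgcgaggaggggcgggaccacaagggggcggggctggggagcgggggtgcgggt

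A core was present in 4 of the 5 genes that rose and in 4 of the other 5, against 43.2% of all 35116 windows of this length. The 5 genes held 0 (KDM2B), 1 (KDM3A), 4 (KDM4B), 5 (KDM4C) and 1 (KDM6B) matches, and KDM6A, which was not called, held 5. The palindrome CACGTG stood in KDM4B, in KDM4C and in KDM6A, against 6.34% of all windows. KDM2B has 4 listed starts, and its other 3 windows held 1, 1 and 2 matches. KDM3A and KDM6B have a second listed start, with 1 match for KDM3A and 0 for KDM6B. A match describes letters only, and binding was not measured.

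Genes that share the co-substrates or the substrates of the family give the setting of the Cpd50 change. The lists were chosen with earlier results of these data known, so their counts are descriptions and not independent support. Of 9 other 2-oxoglutarate oxygenases tested, 5 rose and none fell, with a median of 1.07, beside 5.7% of all genes called and 3.43% called higher. EGLN1, the prolyl hydroxylase that marks hypoxia-inducible factors for breakdown, reached 158 and 148 TPM against 16.8 to 17.98 TPM in DMSO, a change of 3.07 ± 0.14 (SE, adjusted p = 1.15e-13), larger than that of any of the 10 genes. EGLN3 changed by 2.77, P4HA1, a subunit of collagen prolyl hydroxylase, by 2.40 (529 and 523 TPM against 97.07 to 101.02 TPM), and TET1 by 1.38. Of 17 further JmjC genes, 2 rose (JMJD6 by 0.83 and the KDM2B paralog KDM2A by 0.79), and C14orf169, a nucleolar oxygenase, fell by 0.70 on the log2 scale, with a median of 0.02.

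The genes that work against or beside these enzymes did not pass the test under Cpd50, beside 5.7% of all genes called. At that share lists this short would hold few calls or none, so the absence of calls does not set them apart. Among 17 tested methyltransferases of H3K4, H3K9, H3K27 and H3K36 none was called (median -0.27), nor was any of 13 partners of the KDM6A and KDM2B complexes (median -0.08) or the 2 FAD-dependent demethylases (median -0.21). Of the 8 rhabdomyosarcoma markers, CHRND, a subunit of the muscle acetylcholine receptor, rose by 1.41 (293 and 253 TPM against 93.7 to 109 TPM), and 7 were not called. Of 10 markers of other cell types, 4 were high enough to be tested and none was called. Under GSKJ4 no gene of any of these lists was called.

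The remaining 18 compounds gave 180 pairs of gene and compound. Of these, 13 were called (7.22%), beside 9.35% of such pairs over all genes. The calls came from LAQ824, WT161, Bromosporin and UNC0638, and they were 7 higher and 6 lower. With all screen samples in the fit and DMSO as reference, KDM4A and KDM5A were called under none of the 20 compounds and KDM6B under Cpd50 alone. In fits of a compound's own samples and DMSO, KDM4A was called under Cpd50, LAQ824 and Trametinib, KDM5A under LAQ824, and KDM6B under Cpd50, LAQ824, MC1568 and Trametinib. The share of all genes called in these fits was 30% for Cpd50, 75.7% for LAQ824, 36.2% for MC1568 and 12.9% for Trametinib. References of the same flow cell were also used, which for Cpd50 was DMSO. SGC-CBP30, OJI-1, Bromosporin and UNC0638 shared a flow cell without DMSO. Each of them was set against the mean of the other treated compounds on it, which is not a solvent control. With these references KDM4A was called under SGC-CBP30, KDM5A under OJI-1, and KDM6B under Cpd50, Bromosporin and UNC0638. There the share of all genes called was 8.41% for SGC-CBP30, 4.13% for OJI-1, 5.94% for Cpd50, 49.2% for Bromosporin and 30% for UNC0638. Median-ratio scaling added 0.12 to the differences of Bromosporin, 0.11 to those of UNC0638, 0.07 to those of LAQ824 and less in size to the other 15.

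**Figure D3:**
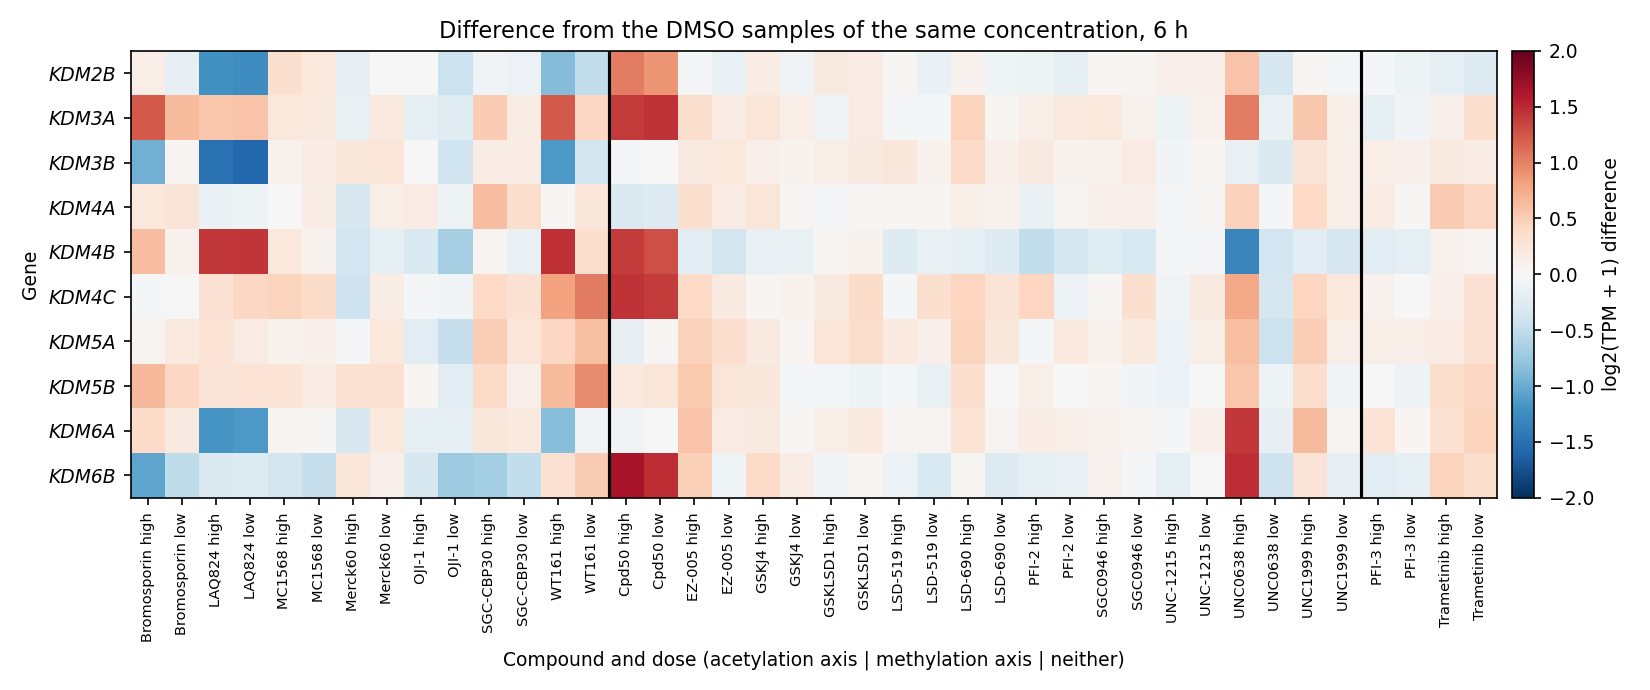
Difference of each of the 40 treated screen samples (columns, high then low dose of each compound) from the mean of the 2 DMSO samples of the same label (high 0.2%, low 0.1%), in log2(TPM + 1), for the 10 genes (rows), red higher and blue lower, with black lines between the axes. Cpd50 stood out in 5 genes at both doses, LAQ824 lowered KDM2B, KDM3B and KDM6A and raised KDM4B at both doses, and the high-dose UNC0638 sample differed from its low-dose sample.

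LAQ824, a broad HDAC inhibitor, lowered 3 genes and raised 1, to nearly equal levels at both doses. KDM3B fell to 29.1 and 28.7 TPM (5 and 0.5 µM) against 82.2 to 88.4 TPM in DMSO, a difference of -1.53 ± 0.21 (SE, adjusted p = 2.68e-06), to the lowest values of the screen. KDM2B fell to 18.2 and 19.3 TPM against 42.6 to 47.0 TPM (-1.23 ± 0.17, adjusted p = 1.93e-06), and KDM6A to 9.02 and 9.21 TPM against 21.4 to 21.8 TPM (-1.17 ± 0.30, adjusted p = 0.00208). KDM4B rose to 61.0 and 62.7 TPM against 22.2 to 22.9 TPM, a change of 1.42 ± 0.25 (adjusted p = 3.86e-05). No LAQ824 value of these 4 genes overlapped DMSO, and the 10-fold dose step moved them by at most 0.08 on the log2(TPM + 1) scale. LAQ824 also changed 53.1% of all genes (28.4% higher and 24.6% lower), so 4 of 10 called is no more than the share over all genes. In a fit of the LAQ824 and DMSO samples alone all 10 genes were called (adjusted p from 0.000186 for KDM3B and KDM4B to 0.0303 for KDM5A), beside 75.7% of all genes. All 8 rhabdomyosarcoma markers fell in the same samples (median -1.62), and whether that has a part in the change of the 4 genes was not tested.

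WT161, labelled as an HDAC6 inhibitor, was the compound with the most calls, 6 of 10, beside 32% of all genes (17.7% higher and 14.3% lower). KDM5B, the H3K4 demethylase, rose to 46.8 TPM at 10 µM and 61.0 TPM at 1 µM against 29.6 to 31.1 TPM (0.79 ± 0.16, adjusted p = 0.000582), and KDM4C to 20.7 and 22.3 TPM against 10.1 to 11.5 TPM (0.92 ± 0.26, adjusted p = 0.00756). The other 4 lay further from DMSO at 10 µM than at 1 µM, whereas KDM5B and KDM4C lay further at 1 µM. With 1 sample a dose, an effect of dose was not tested for this compound. KDM3A was at 108 TPM at 10 µM and 57.1 TPM at 1 µM (0.82 ± 0.29, adjusted p = 0.032), and KDM4B at 63.8 and 29.3 TPM (0.91 ± 0.25, adjusted p = 0.00643). KDM3B was at 37.2 and 67.5 TPM (-0.76 ± 0.21, adjusted p = 0.00887), and KDM2B at 23.3 and 33.0 TPM (-0.68 ± 0.17, adjusted p = 0.00305). Every one of these 6 genes lay outside its DMSO range at both doses. KDM6A, at 11.7 and 20.5 TPM against 21.4 to 21.8 TPM, was not called (-0.46, 95% interval -1.08 to 0.16). In a fit of the WT161 and DMSO samples alone, none of the 6 passed (limma adjusted p from 0.074 to 0.246) and 0% of all genes did, with 5444 genes (33.3%) at an unadjusted p below 0.05. Without the 10 µM sample the calls of KDM2B, KDM3A, KDM3B and KDM4B were lost (differences of -0.44, 0.37, -0.34 and 0.36). The call of KDM3A was also lost under median-ratio scaling (adjusted p = 0.0545), without the filter on low values (0.0537) and without either DMSO concentration, and those of KDM3B and KDM4C without 0.1% DMSO. In the same samples 6 of the 8 rhabdomyosarcoma markers were lower (median -0.98), and whether that has a part in these changes was not tested.

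Bromosporin, an inhibitor of many bromodomains, raised 2 of the 10 genes beside 35.8% of all genes called (12.4% higher and 23.4% lower). KDM3A was at 108 TPM at 10 µM and 66.2 TPM at 1 µM against 41.2 to 45.7 TPM (0.93 ± 0.29, adjusted p = 0.015), and KDM5B at 47.2 and 41.8 TPM against 29.6 to 31.1 TPM (0.53 ± 0.16, adjusted p = 0.0116). KDM6B lay below DMSO at 8.10 and 12.4 TPM, a difference of -0.79 with a 95% interval of -1.45 to -0.12 that did not pass the adjustment (adjusted p = 0.0603). KDM3B was at 42.7 TPM at 10 µM and 89.9 TPM at 1 µM. In a fit of its own samples and DMSO the calls of KDM3A (limma adjusted p = 0.199) and KDM5B (adjusted p = 0.179) were lost and 0% of all genes passed, with 3974 genes (24.3%) at an unadjusted p below 0.05. Both were also lost without the 10 µM sample or without 0.2% DMSO, and KDM3A without 0.1% DMSO. Of the 8 rhabdomyosarcoma markers, 6 were lower here as well (median -0.90), and their part in these changes was not tested.

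UNC0638, labelled KMT1C (the H3K9 methyltransferase G9a), had 1 call beside 12.1% of all genes (2.37% higher and 9.76% lower). KDM4B fell to 8.35 TPM at 10 µM and 17.2 TPM at 1 µM against 22.2 to 22.9 TPM (-0.85 ± 0.25, adjusted p = 0.0274). Its high-dose sample stood apart from the low-dose one in most of the family. KDM6B was at 51.6 TPM against 13.3 TPM, KDM6A at 59.97 TPM against 19.2 TPM and KDM3A at 93.7 TPM against 38.5 TPM, and at the low dose each lay below its DMSO range. The call of KDM4B rested on the high dose, since without that sample the difference was -0.37 (adjusted p = 0.623), and it was also lost under median-ratio scaling (adjusted p = 0.0635), without either DMSO concentration and in a fit of its own samples and DMSO (limma adjusted p = 0.615), where 0% of all genes passed and 1428 genes (8.73%) had an unadjusted p below 0.05. The high-dose value of KDM4B rested on 114 reads.

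For the other 15 compounds none of the 10 genes was called with all screen samples in the fit and DMSO as reference, GSKJ4 included. Over all genes 2.35% of pairs with these compounds were called. The differences of the 10 genes from DMSO ran from -0.58 (KDM6B under SGC-CBP30) to 0.48 (KDM4A under SGC-CBP30), with the smallest adjusted p at 0.0793 for the latter. MC1568, an HDAC4/5 inhibitor, called 22.5% of all genes and none of these, KDM6B being its furthest at 13.7 and 12.8 TPM against 16.2 to 19.96 TPM (-0.42, 95% interval -1.08 to 0.25). The LSD1 inhibitors GSKLSD1, LSD-519 and LSD-690, which target the other class of histone demethylase, left the 10 genes between -0.22 and 0.35.

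Between the axes, no gene of the 10 and 0% of all genes differed, with 30.7% of all genes at an unadjusted p below 0.05. The largest differences, acetylation minus methylation over 7 and 11 compound means, were -0.47 for KDM6B (95% interval -0.93 to -0.02, adjusted p = 0.147), -0.44 for KDM3B (-0.82 to -0.07, adjusted p = 0.111), 0.41 for KDM4B (-0.14 to 0.96, adjusted p = 0.292) and -0.39 for KDM2B (-0.76 to -0.03, adjusted p = 0.139). Without adjustment 5 of the 10 had a p below 0.05. The standard deviation over compounds was 0.63 (acetylation) and 0.13 (methylation) for KDM3B, and 0.50 and 0.19 for KDM6A. The acetylation axis was not wider in every gene, with 0.43 and 0.50 for KDM6B and 0.37 and 0.38 for KDM4C. Cpd50, under which KDM6B rose, is among the 11 methylation-axis compounds. Higher against lower dose gave no call among the 10 on either axis, beside 2.47% of all genes for acetylation and 0% for methylation (3 and 5 of the 10 genes had an unadjusted p below 0.05, beside 24.3% and 10.5% of all genes). The widest steps on the acetylation axis were 0.31 for KDM3A (limma adjusted p = 0.168) and 0.29 for KDM4B (adjusted p = 0.173). On the methylation axis they were 0.31 for KDM6B (adjusted p = 0.454) and 0.27 for KDM3A (adjusted p = 0.441).

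Across the screen the 10 genes followed no single pattern. Over 42 values (40 treated samples and the mean of each DMSO concentration, which share flow cells and controls), Pearson's r between pairs was highest for KDM3A with KDM4C (0.75) and lowest for KDM4B with KDM6A (-0.66). KDM4C with KDM6B (0.67), KDM3B with KDM6A (0.65) and KDM2B with KDM3B (0.65) came next. The paralogs KDM3A and KDM3B had an r of -0.41 and KDM6A and KDM6B of 0.26. Among all genes tested, the one most alike by the same measure was REST for KDM6A (0.95), PAPD7 for KDM2B (0.93), NARF for KDM4B (0.93), ZNF654 for KDM3A (0.90), MNT for KDM6B (0.90), ZKSCAN8 for KDM5A (0.87), INSIG2 for KDM4C (0.84), PPM1K for KDM4A (0.84) and, for KDM5B, the JmjC gene KDM7A (0.83). These are descriptions of 42 values and say nothing of shared control.

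N1302 was compared with the single DMSO sample of its experiment, so the following values have no replicate check. The libraries held 14810170 (N1302) and 26439432 (DMSO) reads. The differences had the signs of LAQ824 for the genes LAQ824 changed: KDM3B was at 14.4 TPM against 75.9 TPM (-2.32), KDM6A at 3.54 against 14.7 TPM (-1.79), KDM2B at 11.7 against 25.0 TPM (-1.04) and KDM4B at 40.9 against 13.5 TPM (1.52). KDM5A was at 10.2 against 26.3 TPM (-1.28). No screen compound moved it past the threshold with all screen samples in the fit and DMSO as reference. KDM5A was called under LAQ824 in the fit of the LAQ824 and DMSO samples alone. It was also called under OJI-1 against the other treated compounds of the same flow cell. Thus 5 of 10 genes lay past 2-fold on the log2(TPM + 1) scale, 1 higher and 4 lower, beside 30.9% of all genes (11.6% higher and 19.3% lower). The other 5 ran from -0.58 (KDM4A) to 0.19 (KDM5B). Median-ratio scaling added 0.33 to every log2 ratio and put KDM2B (-0.73) and KDM5A (-0.98) within 2-fold. Against the mean of this DMSO sample and the 6 h DMSO sample of the time course, KDM6B was at -1.02 (from -0.53) and 6 of the 10 genes were past 2-fold, beside 30.4% of all genes. Of 17 methyltransferases tested, 14 were past 2-fold lower in the same pair of samples.

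Entinostat gave the time course of the family, again with 1 sample a condition. At 1 h the 10 differences ran from -0.13 to 0.21 and none was past 2-fold, beside 1.24% of all genes. At 6 h the 10 differences, all below 0 as deposited and 9 of them below 0 after median-ratio scaling (which added 0.12 and put KDM5B at 0.11), ran from -0.79 for KDM4A (36.5 against 63.8 TPM) to -0.01 for KDM5B (18.1 against 18.2 TPM), with KDM6A at -0.64 (9.35 against 15.2 TPM), KDM6B at -0.63 (11.1 against 17.8 TPM) and 6.08% of all genes past 2-fold. Several of these rested on the DMSO sample chosen. Against the mean of both 6 h DMSO samples outside the screen, KDM6B was at -0.14, KDM2B at -0.23 (from -0.55), KDM4B at -0.20 (from -0.42) and KDM5B at 0.0072, whereas KDM4A was at -0.81, KDM5A at -0.71 (from -0.49) and KDM6A at -0.62, beside 9.66% of all genes past 2-fold. At 24 h the genes had parted. KDM5B stood at 41.7 against 20.7 TPM (0.97, or 1.06 after scaling), KDM3A at 69.0 against 54.3 TPM (0.34) and KDM4A at 71.2 against 61.0 TPM (0.22), whereas KDM2B (22.4 against 38.9 TPM, -0.77), KDM6B (11.1 against 19.3 TPM, -0.74) and KDM3B (51.9 against 86.7 TPM, -0.73) were lower. None of the 10 was past 2-fold at 24 h as deposited and 1 (KDM5B) after scaling, beside 22.4% of all genes. KDM2B, KDM3B and KDM6A, which LAQ824 lowered, were lower than DMSO at 6 and 24 h of Entinostat. At 6 h they shared this with the rest of the 10 genes, and KDM3B differed by only -0.21. KDM6A was at -0.28 at 24 h. KDM4B, which LAQ824 raised, was not higher at 6 h (-0.42) and stood at 0.24 at 24 h.

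**Figure D4:**
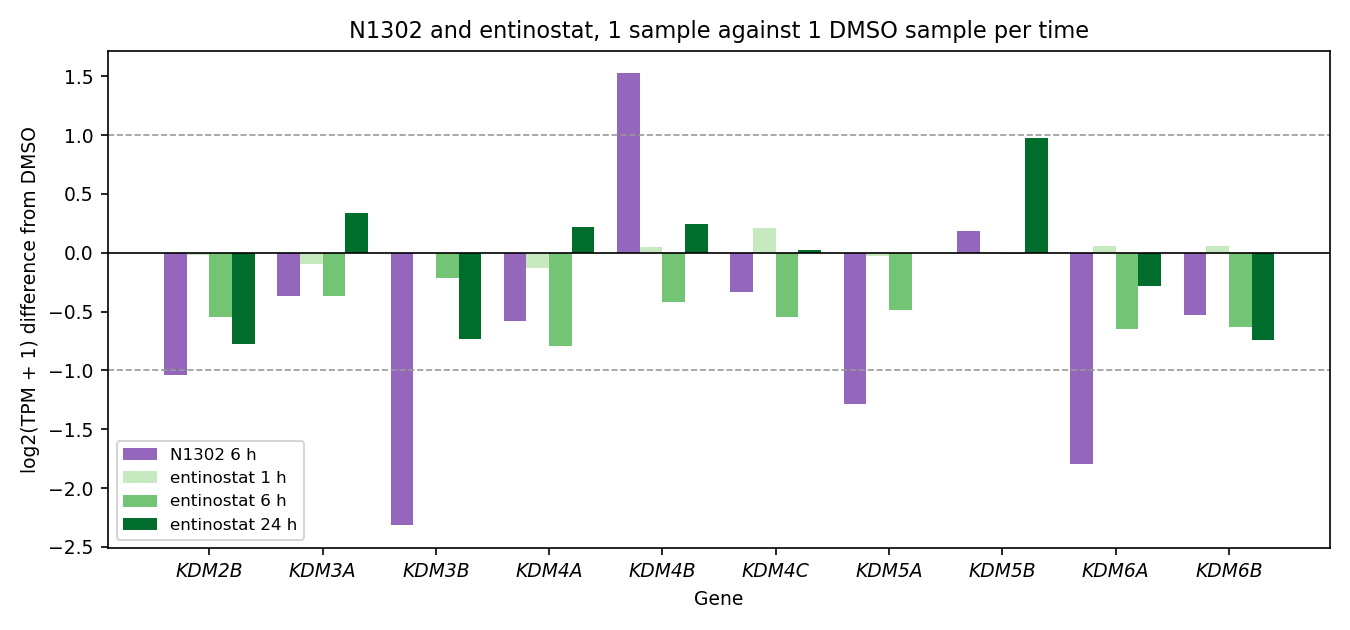
Difference from DMSO in log2(TPM + 1) (y axis) for N1302 at 6 h (purple) and Entinostat at 1, 6 and 24 h (light to dark green), each bar 1 treated sample against 1 DMSO sample, with dashed lines at 2-fold. KDM3B, KDM6A, KDM5A and KDM2B passed the lower line (KDM5A and KDM2B not after median-ratio scaling) and KDM4B the upper line under N1302, and no bar of Entinostat passed either (KDM5B at 24 h reached 1.06 after scaling).

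In the deposited tables (hg19), the gene bodies of the 5 genes raised by Cpd50 lie at chr12:121866900-122018920 (KDM2B, minus strand), chr2:86668271-86719839 (KDM3A, plus), chr19:4969124-5153608 (KDM4B, plus), chr9:6720863-7175648 (KDM4C, plus) and chr17:7743235-7758118 (KDM6B, plus), all protein-coding in GENCODE on GRCh37. Whether counting used strand is not given in the sources used here. The tables place CCDC77 (34.2 to 37.1 TPM in DMSO) over part of KDM5A and the antisense gene KDM4A-AS1 (2.74 to 3.71 TPM) over part of KDM4A, so reads of these genes could be shared in the values of KDM5A and KDM4A.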

How the data were processed

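Poly-A RNA of 52 FP-RMS cell samples was sequenced. The authors aligned reads with STAR to hg19 and computed expression with RSEM; per the labels, edgeR was also used. The deposited values are TPM, 1 column a sample, which the authors scaled to gene length and depth. Groups, doses and times were taken from the labels. Genes reaching 1 TPM in 2 or more samples (16359 of 27043) were analysed as log2(TPM + 1), so changes of low genes are understated. limma 3.58.1 (R 4.3.3, trended eBayes) fitted 40 treated samples and 1 mean per DMSO concentration together, since DMSO samples of one concentration differed by no more than counting noise beyond flow cell (1.02 times counting noise over 10377 genes), and were counted as 1. Residual degrees of freedom were 21. N1302 and Entinostat have 1 sample a condition and no test.

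TPM values were whole multiples of a per-gene step in 99.996% of genes (tolerance 1e-10), which gave whole reads for depth and for a voom alternative. In 3 high-dose libraries (Merck60, Bromosporin, PFI-2) low read numbers were mostly even, so their totals overstate independent reads. Promoter windows are from RefSeq and matched all 10 genes. The fit was tested on simulated data. Python 3.11.15, numpy 2.4.6, pandas 2.3.3 and matplotlib 3.10.9 did the rest.

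The genes and gene lists were chosen with earlier results of these data known. The rule for names took the 10 genes, at most 4 called genes with the largest change from each other list, and the most alike gene for each of the 10 (that for KDM3B is not reported here). Alternatives were a pseudocount of 0.1, median-ratio scaling over genes that reached 10 TPM throughout, other filters on low values, separate DMSO samples, own-sample fits, same-flow-cell references, both 6 h DMSO samples outside the screen as reference for N1302 and Entinostat, leaving out samples, an added fold threshold, voom weights and a replicate block. EHMT2 and RING1 are listed at 0 in every table and, with EGLN2, were not tested.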

Additional observations from a re-analysis of the deposited data

How the results depend on the processing

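The count of 5 genes called under Cpd50 stayed between 4 and 6 under all 13 alternatives (the 6 include KDM4A, lower), and GSKJ4 gave 0 under all 13. The changes of the 5 genes kept their sign, from 0.90 for KDM2B to 1.69 for KDM6B. The count of 5 for Cpd50 against GSKJ4 fell to between 0 and 1 when the high or the low dose was left out, which leaves 1 sample a compound that is assumed to vary like the others. The 13 calls of the 18 other compounds became 20 with references of the same flow cell (16 compounds), 20 with voom weights, 4 when a log2 change of at least 1 was also asked, and between 6 and 24 with a dose or a DMSO concentration left out. They were 6 without the high dose, 24 without the low dose and 8 without 0.1% DMSO. GSKLSD1 and UNC-1215 share a flow cell that holds no other sample, so no reference of the same flow cell was run for them. The remaining compounds without DMSO on their flow cell were set against the mean of the other treated compounds there. The count for the axes was between 0 and 1, and was 1 without Merck60 or without OJI-1. The causes were not tested.

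With the DMSO replicate number as a block, 0 genes were called between the concentrations and 1768 had an unadjusted p below 0.05, against 1548 without it. A filter at a mean TPM of 5 called 3 genes there, none of the 10, and no filter called 1. The replicate number stands for a flow cell, whose difference was 4.06 times counting noise over 10377 genes, while the deviations of same-numbered samples correlated at 0.07 over all genes tested. The block changed no call. Of the calls of single genes, 39 of 261 values under alternatives lost the threshold and none reversed. N1302 and Entinostat gave 4 to 6 genes past 2-fold. The lowest read numbers were those of KDM4C (91 to 1044), KDM4B under UNC0638 (114) and KDM6A under N1302 (148).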
